A study of Mus musculus with 11 samples.

Results

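The regions described here were 18866 autosomal tiles of 2 kb in which 5-hydroxymethylcytosine (5hmC) was high in every library of the series. A tile was taken when its capture level was at least 2 on the log2 RPKM scale (reads per kilobase, scaled to library size) in each of 11 libraries and its mean over the libraries did not exceed 3.61, the level above which the highest 0.1% of autosomal tiles lie. These high tiles were 1.53% of 1231381 autosomal tiles, out of 1362779 tiles in all. They were chosen by these same levels, so the levels are given as a description. Another 1232 tiles lay above the upper limit, and 20940 tiles had means in the range of the high tiles but fell under 2 in at least 1 library. These last tiles are called the variable tiles.

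5hmC is made from 5-methylcytosine by the TET enzymes, and it is an intermediate on a route by which methylation can be removed. In mouse embryonic stem (ES) cells it is known in gene bodies, at enhancers and at promoters of intermediate CpG density, while CpG-dense promoters of active genes carry little methylation for TET enzymes to act on. As naive ES cells move towards the epiblast state, both the DNMT enzymes that methylate DNA and the TET enzymes are active, so that methylation is laid down and turned over.

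The libraries were made from genomic DNA with a kit that captures fragments carrying 5hmC. DNMT_WT, the wild-type parent of a Dnmt1, Dnmt3a and Dnmt3b triple knockout, was sampled at day 2 (3 libraries). TET_WT, the wild-type parent of a Tet1, Tet2 and Tet3 triple knockout, was sampled as ES cells in 2i/Lif (day 0, 3 libraries) and at day 1 (2 libraries) and day 2 (3 libraries) of differentiation to epiblast-like cells. The knockout lines and embryoid bodies of the design were not analysed here. The labels give no other allele or agent for either parental line. They also do not say that replicates were separate cultures, so p-values measure the spread between these libraries. These are bulk samples, so fewer cells with 5hmC in a tile and less 5hmC per cell cannot be told apart. The labelled cell types could not be checked, since 5hmC in a gene is not its expression.

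The starts of many germline genes lay in high tiles. Of 17 autosomal genes on a list of germline genes with a start in the RefSeq table used here, 10 had their start in a high tile, and 4 more had it in a tile above the upper limit. The sequences of the 250 bases before the start are shown for 4 of these genes, because all 4 hold the letters CACGTG, which a search of both strands also found in most of the others. They were taken from RefSeq on GRCm38.p6, are read 5′ to 3′ on the strand of the gene, and have CACGTG in capitals. Mael lies at chr1:166238745-166238994 (minus strand), Sycp3 at chr10:88459337-88459586 (plus strand), Hormad1 at chr3:95559427-95559676 (plus strand) and Sycp1 at chr3:102936101-102936350 (minus strand).
Mael: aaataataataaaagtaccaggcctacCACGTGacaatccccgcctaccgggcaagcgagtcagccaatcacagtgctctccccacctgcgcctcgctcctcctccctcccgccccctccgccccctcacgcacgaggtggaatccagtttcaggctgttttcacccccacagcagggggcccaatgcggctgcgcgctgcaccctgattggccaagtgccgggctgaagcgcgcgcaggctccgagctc
Sycp3: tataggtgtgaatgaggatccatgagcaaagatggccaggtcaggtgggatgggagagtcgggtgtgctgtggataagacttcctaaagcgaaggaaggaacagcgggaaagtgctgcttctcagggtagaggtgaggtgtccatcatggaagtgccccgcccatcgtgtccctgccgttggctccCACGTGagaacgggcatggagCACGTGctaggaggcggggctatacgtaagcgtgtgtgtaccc
Hormad1: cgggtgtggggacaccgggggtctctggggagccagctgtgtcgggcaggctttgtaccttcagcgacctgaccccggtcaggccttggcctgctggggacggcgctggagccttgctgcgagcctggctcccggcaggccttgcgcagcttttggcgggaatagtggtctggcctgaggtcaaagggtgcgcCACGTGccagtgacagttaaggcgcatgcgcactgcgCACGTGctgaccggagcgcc
Sycp1: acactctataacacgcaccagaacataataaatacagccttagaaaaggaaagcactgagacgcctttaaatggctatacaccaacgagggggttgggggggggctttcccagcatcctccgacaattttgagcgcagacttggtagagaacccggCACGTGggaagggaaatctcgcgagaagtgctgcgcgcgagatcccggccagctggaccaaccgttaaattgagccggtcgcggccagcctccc

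A second set of start sequences gives examples of high starts and of a low start that differ in CpG number. They were picked by level or by number of high tiles, so they illustrate and test nothing. The first 3 have the highest tile means among starts in high tiles whose 250 bases overlap no annotated gene, with predicted genes left out. The last belongs to Cmip, one of the genes with the most high tiles, whose own start was low. Here capitals mark every CG. Noxa1 lies at chr2:25095206-25095455 (minus strand), Tex44 at chr1:86426079-86426328 (plus strand), Cort at chr4:149126764-149127013 (minus strand) and Cmip at chr8:117256769-117257018 (plus strand). The tile means were 3.61, 3.60 and 3.58 for Noxa1, Tex44 and Cort, with 8, 3 and 8 CG in the letters shown. The Cmip start tile had a mean of -1.07, and its 250 bases hold 42 CG.
Noxa1: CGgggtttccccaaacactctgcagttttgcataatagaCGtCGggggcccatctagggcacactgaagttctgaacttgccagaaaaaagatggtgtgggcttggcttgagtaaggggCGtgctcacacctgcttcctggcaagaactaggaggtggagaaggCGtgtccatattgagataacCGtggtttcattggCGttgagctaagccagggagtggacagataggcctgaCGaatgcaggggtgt
Tex44: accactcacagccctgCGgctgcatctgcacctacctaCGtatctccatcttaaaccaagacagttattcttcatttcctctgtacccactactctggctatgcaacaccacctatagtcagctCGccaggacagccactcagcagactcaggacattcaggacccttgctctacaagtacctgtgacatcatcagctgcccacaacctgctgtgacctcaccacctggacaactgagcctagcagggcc
Cort: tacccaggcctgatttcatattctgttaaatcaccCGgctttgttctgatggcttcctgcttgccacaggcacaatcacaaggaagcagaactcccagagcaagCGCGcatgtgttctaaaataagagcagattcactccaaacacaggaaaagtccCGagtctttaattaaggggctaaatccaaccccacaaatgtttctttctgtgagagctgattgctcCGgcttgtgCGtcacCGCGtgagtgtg
Cmip: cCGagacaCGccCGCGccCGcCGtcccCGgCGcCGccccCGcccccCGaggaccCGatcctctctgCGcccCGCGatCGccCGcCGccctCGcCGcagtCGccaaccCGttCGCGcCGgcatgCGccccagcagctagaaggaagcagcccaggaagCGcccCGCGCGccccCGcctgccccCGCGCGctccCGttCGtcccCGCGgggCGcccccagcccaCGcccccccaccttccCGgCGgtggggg

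The high tiles held 11.3% to 13.7% of the autosomal reads of each library. Recovered read totals ran from 7342015 (TET_WT day 1 replicate 2) to 51604034 (TET_WT day 0 replicate 1), and the fewest reads in any high tile ran from 26 to 178 over the libraries. Counting error alone gave a high tile a median SD of 0.09 to 0.22 on the log2 scale, depending on the library; it does not cover losses in capture or PCR. The median level of the high tiles was 2.88, 2.83 and 2.87 in DNMT_WT, 2.68, 2.95 and 2.66 in TET_WT at day 0, 2.83 and 2.84 at day 1, and 2.81, 2.82 and 2.83 at day 2. TET_WT day 0 replicate 2 thus stood above the other day 0 libraries, and its median over all autosomal tiles, -2.10, was the lowest of the 11, next to -2.09 in DNMT_WT replicate 3. Just inside the rule, 3388 high tiles had their lowest value between 2 and 2.1, and just outside it 3769 tiles under the upper limit had theirs between 1.9 and 2.

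**Figure D1:**
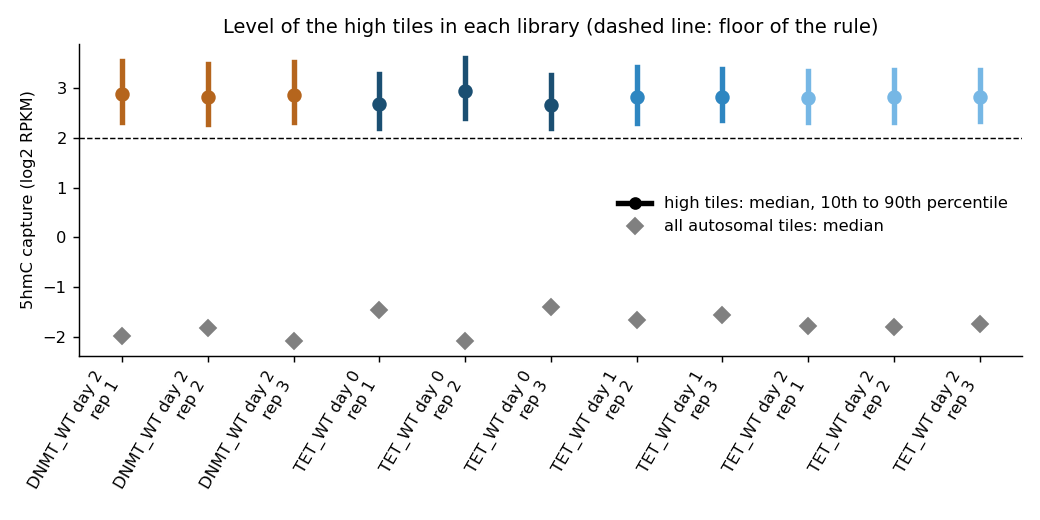
Capture level (log2 RPKM) in each library, as the median and the 10th to 90th percentile of the 18866 high tiles (circles and bars) and the median of all autosomal tiles (diamonds). The high tiles sit between medians of 2.66 and 2.95, and TET_WT day 0 replicate 2 has the highest median of high tiles and the lowest median of all tiles.

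The high tiles lay mostly inside genes. Of the 18866, 75.4% overlapped the annotated span of a protein-coding gene on GRCm38, against 41.3% of all autosomal tiles, and 17.3% lay outside any annotated gene, against 49.3%. The overlap was 69.3% for the variable tiles and 89.3% for the tiles above the upper limit, so it is not particular to the high tiles. At least 1 high tile was found in 5724 of 20661 autosomal protein-coding genes (27.7%): 2852 genes had 1, and 187 had 10 or more. Seen from the tiles, 2.80% of those in protein-coding genes were high, against 0.54% of those outside genes. High tiles also overlapped 1460 of 12408 lncRNA genes (11.8%) and 113 of 1136 miRNA genes (9.95%). Annotated starts of protein-coding genes were held by 1.53% of the high tiles and 1.48% of all tiles. Of the tiles holding a start 1.60% were high, a smaller share than the 2.80% of tiles in protein-coding genes.

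Along genes the high tiles gathered towards the 3′ end. In 7569 protein-coding genes of 20 kb or more, 1.05% of the tiles in the first 10% of the gene length were high, and the share was larger at each following step, up to 5.71% in the last 10%. In the 2 kb before the start it was 0.94%, and in the 2 kb after the end 3.61%. The ratio of the last to the first step was 5.46, and it lay between 3.99 and 7.94 under the other thresholds, scalings and left-out libraries tried. The median level of all tiles was also higher in the last step than in the first in every group. It was -0.08 against -1.22 in TET_WT at day 0 and -0.29 against -1.01 in DNMT_WT. A higher level towards the 3′ end is thus not particular to the high tiles.

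**Figure D2:**
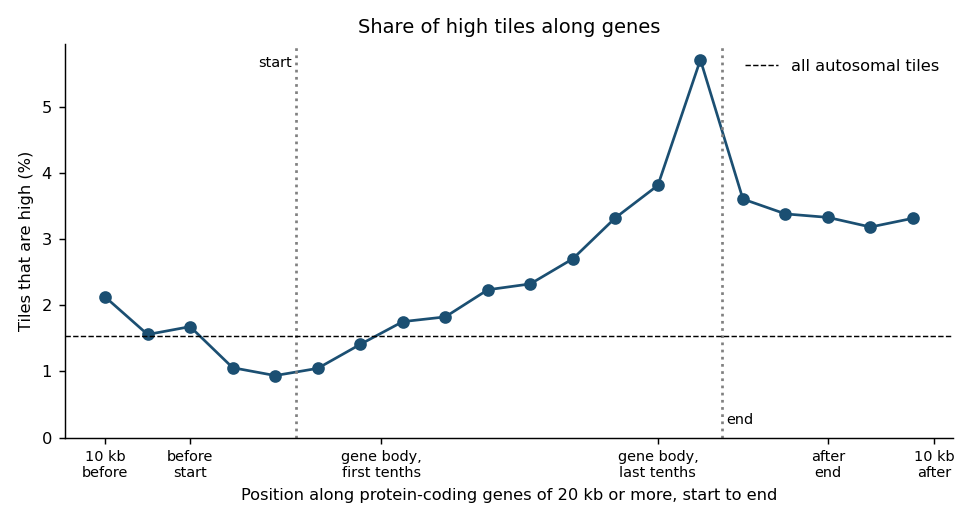
Share of tiles that are high (%) by position along 7569 protein-coding genes of 20 kb or more, in 2 kb steps outside the gene and steps of 10% of its length inside. The share is lowest in the 2 kb before the start (0.94%) and highest in the last 10% of the gene (5.71%), and the dashed line is the 1.53% of all autosomal tiles.

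The genes with the most high tiles were long genes, each with at least 31 high tiles. Zfhx3, a homeobox and zinc finger transcription factor, held 78 among its 342 tiles (chromosome 8, 108279311 to 108961636). Wwox, a WW-domain oxidoreductase, held 55 of 458, Gse1, a coiled-coil protein, 51 of 177, and Cmip, the c-Maf inducing protein, 39 of 103. Cit, the citron kinase of cytokinesis, and Tiam1, an exchange factor for Rac, held 38 each, of 83 and 180 tiles. Fto, a demethylase of N6-methyladenosine, and Dst, the cytoskeletal linker dystonin, held 37 each, and the transporter gene Abcc4, the actin regulator Mical3 and the teneurin Tenm3 tied with 31 each.

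The densest genes were shorter. Among genes of 10 tiles or more, named here after their values were seen, Otud3, a deubiquitinase, and Ints1, a subunit of the Integrator complex, had 10 high tiles of 13 (76.9%). Man2a2, a Golgi mannosidase, had 8 of 12. The mean over the 10 high tiles of Ints1 was 3.25, 3.32 and 3.31 in the DNMT_WT libraries, 2.66, 3.06 and 2.74 in TET_WT at day 0, 3.09 and 3.24 at day 1, and 3.04, 2.96 and 3.09 at day 2. Day 0 replicates 1 and 3 were the lowest; these 10 tiles were chosen for their level, and the 3 other tiles of the gene are not in the mean.

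Most high tiles stood alone. They formed 15014 runs of adjacent tiles, of which 12118 were 1 tile long, and 35.8% of the high tiles were in runs of at least 2. The tiles 2 kb away from a high tile had a median level of 1.74 on the left and 1.73 on the right, and 20.4% of them were high. At 20 kb to the left the median was 0.83 and at 40 kb 0.67, against -1.96 over all autosomal tiles. The longest run was 10 tiles in Zfhx3 (chromosome 8, 108882001 to 108902000), with run means of 3.04 ± 0.10 in DNMT_WT, 3.09 ± 0.24 in TET_WT at day 0, 3.02 ± 0.14 at day 1 and 2.95 ± 0.03 at day 2 (SD, n = 3, 3, 2 and 3). The next, of 9 tiles, covered the end of Clstn1 and part of Pik3cd on chromosome 4, and runs of 8 lay in Dst, Tecpr1 (an autophagy protein) and Tcf25.

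Where a start did lie in a high tile, its CpG number was usually intermediate. Among 17140 RefSeq start windows of 300 bases (250 before and 50 after the start) inside 1 tile, 256 were in high tiles, and these held a median of 8 CG, against 13 over all windows. The 340 windows in variable tiles held a median of 7, so this number is not particular to the high tiles. Counting CG on either strand gives the same number. The share in a high tile was 0.53% for windows with 0 to 2 CG, 2.17% for 3 to 5, 5.04% for 6 to 10, 1.70% for 11 to 20 and 0.30% for 21 or more. The share for 6 to 10 CG was 4.96% without chromosome 8. A CG count describes these letters, and CG in the rest of the tile was not counted because no genome sequence was used here.

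The germline starts were mostly richer in CG than this. In all, 38 genes had a start window with 15 or more CG in a high tile (0.519% of 7325 such genes), of which 8 are on the germline list; the others include Tmem267 with 50 CG, Parp12 with 46 and Celsr2 with 40, named after their values were seen. The 10 germline start windows in high tiles held 10 to 38 CG (median 22), and 8 of them held CACGTG, against 9.01% of 16456 protein-coding genes with a window in the table. The share of those genes with a start in a high tile was 1.71%. None of the other 10 gene lists, from naive pluripotency to housekeeping genes, had a start in a high tile. Each of those lists had only 10 to 22 genes with a start, so none in a list is near the 1.71% of all genes. Of the germline genes, the synaptonemal complex proteins Sycp1 and Sycp3, the axis protein Hormad1 and Stra8 act in meiosis. Mael, Asz1, Tdrd1 and Tdrd9 act in the piRNA pathway. Ddx4 is a germ cell RNA helicase and Brdt a testis-specific bromodomain protein.

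Most of these start tiles stood above their own genes, and 7 of the 10 genes had a median tile below 0. The Mael start tile had 3.27, 3.33 and 3.34 in DNMT_WT, 3.39, 3.62 and 3.12 in TET_WT at day 0, 3.15 and 3.56 at day 1 and 3.22, 3.42 and 3.24 at day 2, while the median tile of Mael was at -2.83. The Asz1 start tile had 3.11, 2.93 and 3.14 in DNMT_WT, 3.55, 3.74 and 3.48 at day 0, 3.27 and 3.35 at day 1 and 3.43, 3.38 and 3.31 at day 2, in a gene with a median of -3.11. The groups overlapped for Mael, whereas DNMT_WT lay under every TET_WT library for Asz1. By limma the Asz1 difference between the lines at day 2 was not called (-0.31, SE 0.14, adjusted p = 0.24). Asz1 lies on chromosome 6, where DNMT_WT had 0.82 of the median chromosome's reads per tile, against 0.97 in TET_WT at day 2. The tiles on either side of the 10 start tiles had a median of 0.94. The highest of these neighbours, at 3.38, lay beside the Sycp1 start tile and stood above that tile's mean of 2.90. Dazl, Sohlh2, Mov10l1 and Slc25a31, also genes of germ cells, had start tiles with means of 4.15, 3.97, 3.90 and 3.87, above the limit of the rule.

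**Figure D3:**
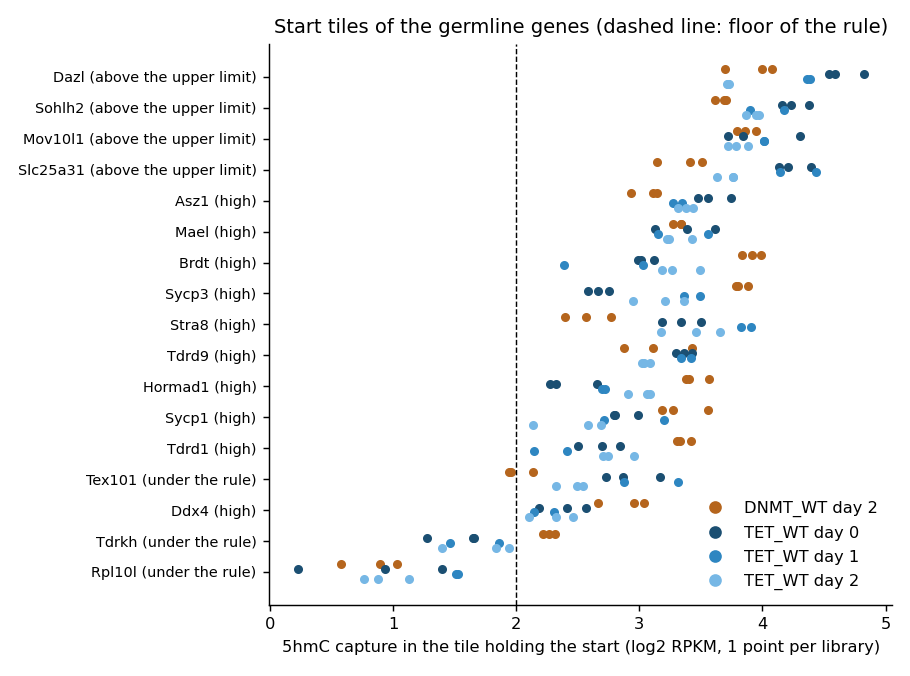
Capture level (log2 RPKM) of the tile holding the start of each of 17 germline genes, with 1 point per library coloured by group. 10 rows are high tiles, 4 lie above the upper limit, and Tex101, Tdrkh and Rpl10l fall under 2 in at least 1 library.

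Some of these start tiles differed between days and some between the lines; whether the days and the lines differ in this was not tested. By limma with Benjamini-Hochberg adjustment over all 1107042 tested tiles, 2 of the 10 were higher at day 2 than at day 0 in TET_WT and none lower, where 8.5% of all tested tiles were called. The Sycp3 tile had 3.21, 2.94 and 3.37 at day 2, against 2.58, 2.66 and 2.75 at day 0 (0.51, SE 0.14, adjusted p = 0.00796), and Hormad1 was the other one (0.60, SE 0.15, adjusted p = 0.0036). Sycp3 was also higher at day 1 than at day 0 (0.76, SE 0.16, adjusted p = 0.0022), where 0.993% of all tested tiles were called. Brdt was higher at day 2 than at day 1 (0.61, SE 0.16, adjusted p = 0.0105), where 3.13% were. It had 3.49, 3.18 and 3.27 at day 2, against 2.38 and 3.03 at day 1. The lower day 1 value came from replicate 2, the library with the fewest reads. At day 2, 5 of the 10 were higher and 1 lower in DNMT_WT than in TET_WT, where 3.41% of all tested tiles were called. The Sycp1 tile had 3.56, 3.19 and 3.27 in DNMT_WT, against 2.13, 2.69 and 2.58 in TET_WT (0.87, SE 0.16, adjusted p = 4.8e-05), and Stra8, the lower one, had 2.77, 2.57 and 2.39 in DNMT_WT, against 3.66, 3.46 and 3.18 in TET_WT (-0.86, SE 0.14, adjusted p = 5.63e-06). Stra8, like Asz1, lies on chromosome 6, with its fewer relative reads in DNMT_WT. With limma's prior spread taken as the same at every level (no trend of the spread on level), none of the 10 was called in any comparison, and with library medians set equal 3 were higher and none lower in DNMT_WT and none was called between days.

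The share of genes with a high tile varied between the gene lists, and the naive pluripotency (25%) and formative (16.7%) lists lay under the 27.7% of all protein-coding genes. Counted by tile they lay above, with 3.57% and 5.49% of their tiles high, against 2.81% for all protein-coding genes. Genes of these lists were shorter, with median lengths of 9.54 and 9.12 kb, against 17.5 kb. Of the autosomal members of each list, a high tile was found in 5 of 20 naive pluripotency genes, 3 of 18 formative and primed genes, 9 of 19 genes of the DNA methylation machinery, 15 of 22 signalling genes, 16 of 22 chromatin remodelling genes, 11 of 21 Polycomb and trithorax genes and 10 of 29 blood lineage genes. It was found in 2 of 18 housekeeping genes, 5 of 20 neural genes, 4 of 16 fibroblast genes, 10 of 18 germline genes and 9 of 1458 olfactory and vomeronasal receptor genes, against 27.7% of all protein-coding genes. The lists differ in gene length, with medians of 5.58 kb for the housekeeping and 72.7 kb for the chromatin remodelling genes, and longer genes had more chances: 10.5% of genes under 10 kb and 52.5% of those of 100 to 300 kb held a high tile.

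Among the enzymes of the 5hmC pathway itself, Dnmt1, the maintenance methyltransferase, had 10 high tiles of 27, and Dnmt3a, a de novo methyltransferase that is on 2 of the lists, had 7 of 58. Tet3 had 4 of 48, Tet1 3 of 42 and Tet2 1 of 42. Chd7, a chromatin remodeller, had 15 of 90, and Kmt2a, a histone H3 lysine 4 methyltransferase, 11 of 40. Lifr, the receptor of the Lif cytokine in the ES cell medium, and Tcf7l1, a repressor of Wnt targets, had 10 each. Lef1 had 10 of 58, Stat3 3 of 27 and Nr5a2 3 of 60. In the blood list Cbfa2t3 and Runx1 had 6 each, Notch1 5 and Kit 4.

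Chromosome 8 held more than its share. Of its tiles 4.19% were high, against 0.94% to 2.06% on each of the other autosomes, and 14.4% of all high tiles lay there. Its mean reads per tile were 1.46 to 1.53 times those of the median chromosome over the 11 libraries. Zfhx3, Wwox, Gse1, Cmip, Fto and Tenm3 all lie on it. Input libraries were not analysed here, so more DNA of this chromosome and more 5hmC per DNA cannot be told apart. When each chromosome was given the same median, in a check added after seeing the data, 2.28% of chromosome 8 tiles met the rule, against 1.47% elsewhere, and 73.3% of the high tiles still met it. Off chromosome 8 the genes with the most high tiles were Cit, Tiam1, Dst, Abcc4 and Mical3, followed by Dnah8 and Slc39a11 with 30 each.

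**Figure D4:**
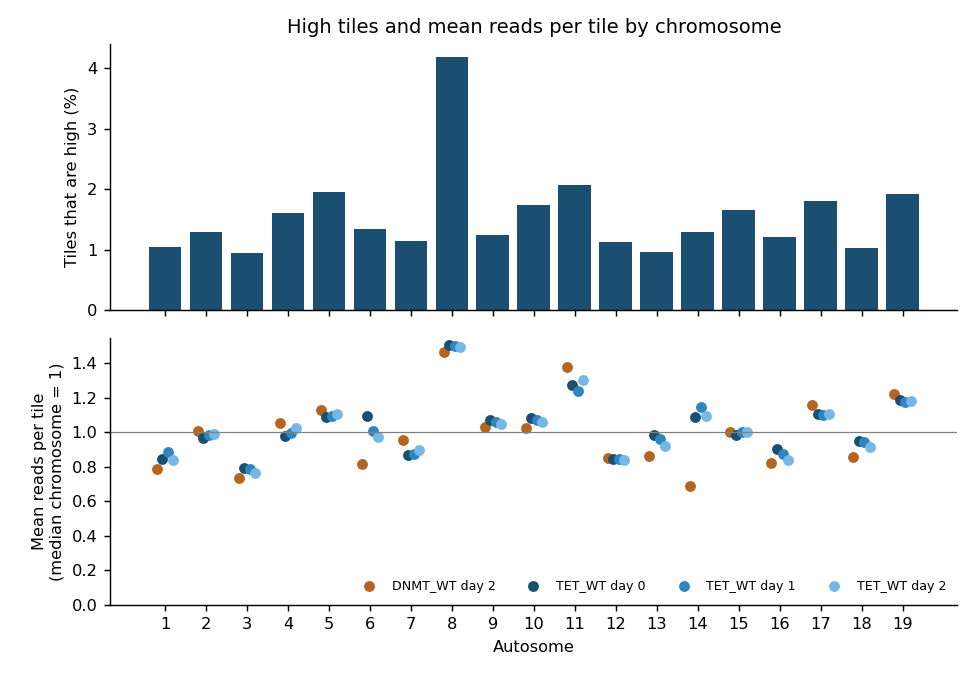
Share of tiles that are high (%, upper panel) and mean reads per tile relative to the median chromosome (lower panel, 1 point per group) for the 19 autosomes. Chromosome 8 stands out in both panels, and DNMT_WT on chromosome 14 lies at 0.69, against 1.09 in TET_WT at day 2.

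The level of most high tiles changed little over the 3 days. The range of the day 0, day 1 and day 2 means of TET_WT had a median of 0.38 on the log2 scale, and it was under 0.5 in 68.5% of the high tiles and at least 1 in 428 (2.27%). In the variable tiles, whose library medians were lower (2.12 to 2.45), the median range was 0.58, and the SD within groups had a median of 0.18 in the high tiles and 0.22 in the variable ones. The floor of the rule limits how far a high tile can fall, so this describes the selection and is no test of stability. The smallest range of the 4 group means, 0.03, was shared by tiles in Lif, the cytokine gene itself, Drosha, which encodes the nuclear miRNA processing enzyme, and Kcns1. Tiles outside genes on chromosomes 8 and 18 also had 0.03, and Acvr1, a BMP type I receptor, had 0.04. The Drosha tile had 2.58, 2.36 and 2.62 in DNMT_WT, 2.51, 2.55 and 2.46 in TET_WT at day 0, 2.55 and 2.52 at day 1 and 2.44, 2.55 and 2.58 at day 2. All 11 values of the Drosha tile lay close together. Single libraries were more scattered elsewhere, with day 0 values of 2.91, 3.16 and 2.48 in Lif and 2.20, 2.91 and 2.64 in Kcns1.

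Day 2 differed from day 0 in a minority of the high tiles. By limma, 5355 of 18866 were called at an adjusted p under 0.05 (28.4%), against 8.5% of all tested tiles, with 3034 higher (background 5.65%) and 2321 lower (background 2.86%) at day 2. The variable tiles were called in 45.5%, so the share is not particular to the high tiles. The median difference was 0.04 in the high tiles and -0.06 in all tested tiles. Among the called tiles the median size was 0.63 for gains and 0.64 for losses, and 210 gains and 196 losses were at least 1. The day 1 mean lay between those of day 0 and day 2 in 83.2% of the gains and 86.1% of the losses. The split varied by chromosome, which was not tested. On chromosome 14, 28.9% of the high tiles were higher and 8.14% lower, against 16.1% and 12.3% over all high tiles. On chromosomes 3, 6, 13 and 16 more were lower than higher. Relative reads per tile on chromosome 6 were 1.09 at day 0 and 0.97 at day 2, and on chromosome 14 they were 1.08 and 1.09. Counts depended on the fit: 53 high tiles were called with no trend of the spread on level, 826 with reads thinned to the shallowest library (equal depth), and 1355 (784 higher, 571 lower) with library medians set equal. With the median of the high tiles set equal instead 2777 were higher and 3195 lower, with chromosome medians set equal 983 and 595, and without TET_WT day 0 replicate 2 the split was 3969 to 1560.

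The 10 tiles with the largest differences between day 2 and day 0 were called under every alternative tried. The tile in Arhgef18, a guanine nucleotide exchange factor (chromosome 8, 3432001 to 3434000), had 2.06, 2.30 and 2.02 at day 0, 2.73 and 2.92 at day 1 and 3.96, 4.04 and 3.94 at day 2. Day 2 exceeded day 0 by 1.85 (SE 0.14, adjusted p = 1.03e-22), with no overlap of values. The tile in Elfn2, a postsynaptic membrane protein, had 2.11, 2.29 and 2.02 at day 0, 2.38 and 2.68 at day 1 and 4.04, 3.87 and 3.92 at day 2, so that it rose mainly after day 1 (1.81, SE 0.14, adjusted p = 1.07e-21). The tile shared by Angpt2, a ligand of the Tie2 receptor, and Mcph1, which encodes microcephalin, gained 1.74. The tiles in Srsf4, a splicing factor, and Nob1, which acts in ribosome maturation, gained 1.59 and 1.55. In all 5 the DNMT_WT libraries at day 2 lay at 3.88 or more. Arhgef18, Angpt2 and Nob1 lie on chromosome 8, whose relative reads lay between 1.46 and 1.53 in all libraries.

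The largest loss was in the imprinted Rtl1 gene, at a tile that also holds Mir127, a miRNA gene transcribed from the opposite strand (chromosome 12, 109592001 to 109594000). It had 4.50, 4.90 and 4.17 at day 0, 3.75 and 3.26 at day 1 and 2.69, 2.37 and 2.63 at day 2, a difference of -1.96 between day 2 and day 0 (SE 0.13, adjusted p = 1.09e-24). In DNMT_WT at day 2 it had 3.66, 3.79 and 3.79, above all 3 TET_WT day 2 libraries. The mature miRNAs of this tile, from RefSeq with bases 2 to 8 (the seed) in capitals, show which locus it is; their expression was not measured.
mmu-miR-127-5p: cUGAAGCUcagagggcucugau
mmu-miR-127-3p: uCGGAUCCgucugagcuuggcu

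The other losses were in Srrm2, a splicing factor, in Tenm4, a teneurin, and in a pair of tiles outside genes. The Srrm2 tile had 3.87, 4.32 and 3.89 at day 0, 3.09 and 3.04 at day 1 and 2.30, 2.01 and 2.16 at day 2 (-1.87, SE 0.15, adjusted p = 1.02e-19). The Tenm4 tile fell by 1.72 (SE 0.13) at day 2 relative to day 0. The pair outside genes starts at 3002001 and 3028001 on chromosome 9, within the first 40 kb of that chromosome to hold reads, and differed by -1.72 and -1.93. Of the 20 tiles in those 40 kb, 3 lay above the upper limit, and the highest mean was 4.80. Whether reads there map to 1 place was not tested. Among genes of several high tiles, named after their values were seen, Ttn, the giant sarcomere protein titin, had 15 of 23 tiles lower at day 2, with a mean over its high tiles of 2.77, 2.66 and 2.74 at day 2, against 3.29, 3.46 and 3.27 at day 0. Gse1 had 17 of 51 higher and 4 lower, while Zfhx3 had 7 higher and 21 lower of 78. These calls depended on the fit: with no trend of the spread on level Ttn kept 1 lower tile, Gse1 none and Zfhx3 1 higher, and with library medians set equal Ttn had 1 higher and 10 lower, Gse1 6 and 1, and Zfhx3 4 and 3. At equal depth Ttn had 5 lower, Gse1 3 higher and Zfhx3 4 of each, and without day 0 replicate 2 Gse1 had 25 higher and 2 lower.

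**Figure D5:**
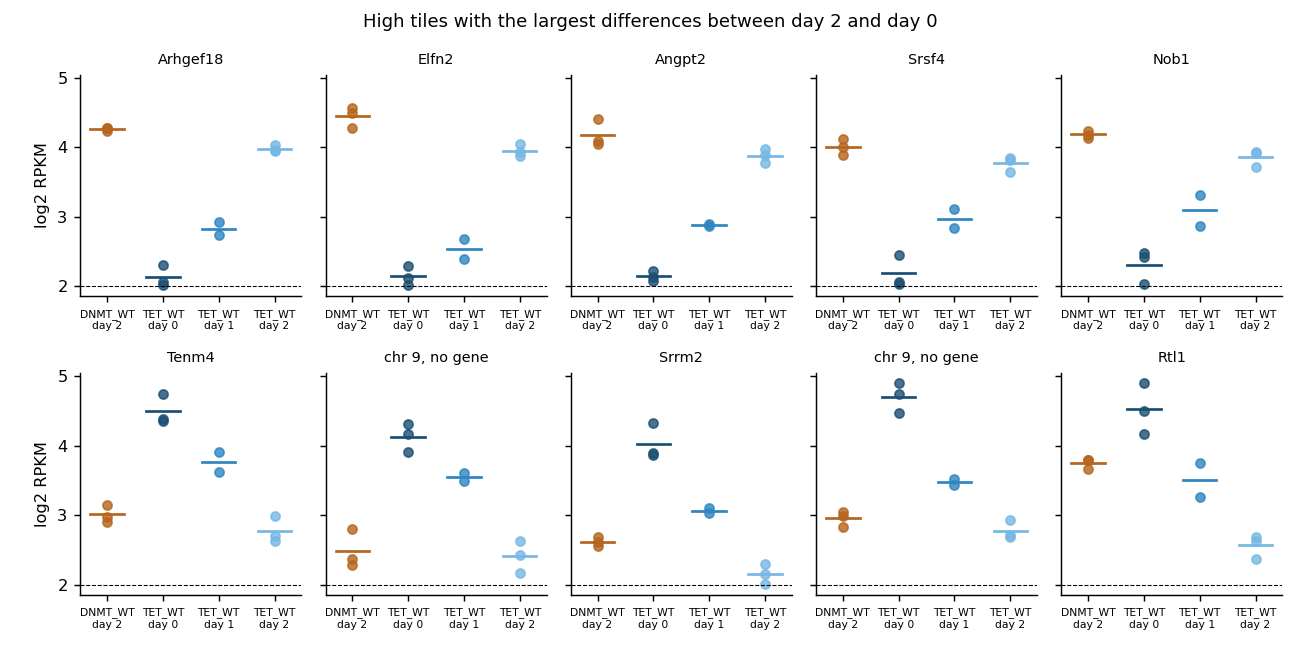
Capture level (log2 RPKM) of the 10 high tiles with the largest gains (upper row) and losses (lower row) between day 2 and day 0, with 1 point per library and the group mean as a line. The day 1 mean lies between those of day 0 and day 2 in all 10, and DNMT_WT was called higher than TET_WT at day 2 at Rtl1 (1.18) and Elfn2 (0.50).

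The steps to day 1 and on to day 2 gave fewer calls. Between day 1 and day 0, 848 high tiles were called (4.49%), against 0.993% of all tested tiles, with 584 higher (background 0.587%) and 264 lower (background 0.406%). Between day 2 and day 1, 1435 were called (7.61%, against 3.13% of all tested), with 684 higher (background 2.55%) and 751 lower (background 0.577%). These comparisons share libraries. The splits rest on the scaling: with library medians set equal the first was 0 higher and 16 lower and the second 145 higher and 8 lower, with the median of each chromosome set equal they were 0 to 21 and 268 to 11, and with the high tiles set equal the first was 495 to 598. Leaving out the shallow day 1 replicate 2 left 179 and 455 calls, from a fit in which the lone day 1 library is taken to vary like the other groups. Without day 0 replicate 2 the counts were 1347 and 2249. The median of all tested tiles differed by 0.16 between day 1 and day 0 and by -0.23 between day 2 and day 1, so small differences are read relative to these shifts.

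Single tiles moved early or late. The Serpinh1 tile (a collagen chaperone gene) had 3.43 and 3.29 at day 1, against 2.05, 2.06 and 2.30 at day 0 (1.22, SE 0.16, adjusted p = 2.28e-07), and it kept 3.11 to 3.42 at day 2. The largest losses by day 1 were in Galnt7 (-1.25), in the chromosome 9 tile at 3028001 (-1.24), in Lrrc8c, a subunit of a volume-regulated anion channel (-1.21), and in Dsp, the desmosome protein desmoplakin (-1.17). The Fscn1 tile (fascin, an actin-bundling protein) moved later, with 3.50, 3.76 and 3.69 at day 2, against 2.20 and 2.59 at day 1 (1.26, SE 0.16, adjusted p = 4.19e-09). The Armc2 tile had 2.03, 2.09 and 2.46 at day 2, against 3.51 and 3.53 at day 1 (-1.32, SE 0.18, adjusted p = 1.08e-08). Of the 10 tiles named by size in each of these steps, none passed with no trend of the spread on level. With library or chromosome medians set equal, 5 of the 10 named between day 1 and day 0 passed. No high tile was then called higher at day 1 than at day 0, so the Serpinh1 gain was not called. At equal depth 4 of those 10 passed. Of the 10 named between day 2 and day 1, all passed with these medians set equal and 6 passed at equal depth.

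At day 2 the lines differed in 2158 high tiles (11.4%), against 3.41% of all tested tiles, with 1294 higher (background 1.05%) and 864 lower (background 2.36%) in DNMT_WT. Of the lower ones 382 (44.2%) lay on chromosome 14, where none was higher and where DNMT_WT had 0.69 of the median chromosome's reads per tile, against 1.09 in TET_WT at day 2. On chromosome 6, at 0.82 in DNMT_WT against 0.97 in TET_WT at day 2, 79 high tiles were lower and 16 higher. DNA amount and 5hmC on these chromosomes cannot be told apart here. Of the variable tiles, 16.3% were called between the lines, so the share is not particular to the high tiles. The median over all tested tiles differed by -0.12. Setting library medians equal left 587 higher and 21 lower, and setting chromosome medians equal left 410 and 14; the median of all tested tiles was then 0.14 and 0.11. On the deposited scale 1294 higher and 482 lower tiles lay off chromosome 14. With the median of the high tiles set equal, 1308 were higher and 1226 lower. The lines also differ in whatever else separated their culture and preparation, which the labels do not give.

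A dynein gene stood out between the lines. Dnah8, an axonemal dynein heavy chain on chromosome 17 (30626935 to 30875762), had 27 of its 30 high tiles higher in DNMT_WT and none lower, out of 116 tiles called higher on that chromosome. The mean over the 30 tiles was 3.54, 3.56 and 3.61 in DNMT_WT, against 2.82, 2.79 and 2.79 in TET_WT at day 2. The lines did not overlap, and all 30 differences were above 0. It was named after its values were seen. The number called was 22 with library medians equal, 18 with chromosome medians equal, 3 at equal depth and 0 with no trend of the spread, and the median difference, 0.74, was 0.70 or more under every alternative.

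The run over Clstn1 and Pik3cd went the other way. Clstn1 encodes the neuronal membrane protein calsyntenin and Pik3cd a catalytic subunit of phosphoinositide 3-kinase. Over its 9 tiles (chromosome 4, 149642001 to 149660000) the mean was 2.81, 2.64 and 2.67 in DNMT_WT, against 3.41, 3.41 and 3.48 in TET_WT at day 2, and 8 of the 9 tiles were called lower. None of the 9 was called with library or chromosome medians set equal, where the median difference was -0.49 and -0.53. On chromosome 14 the medians turned: for Abcc4, with 13 of 31 tiles called lower, the median difference was -0.42 on the deposited scale and 0.37 with chromosome medians equal.

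The largest single differences between the lines included tiles in Hoxd12, Spg7 and Tmem40. The Hoxd12 tile, in a limb patterning homeobox gene, had 4.19, 4.34 and 4.15 in DNMT_WT, against 2.82, 2.97 and 2.68 in TET_WT at day 2 (1.41, SE 0.15, adjusted p = 1.41e-12). The Spg7 tile, in a gene for a mitochondrial protease subunit, had 3.60, 3.40 and 3.66 in DNMT_WT, against 2.16, 2.14 and 2.01 in TET_WT at day 2 (1.45, SE 0.16). Lower in DNMT_WT were the Tmem40 tile, with 2.19, 2.32 and 2.26 in DNMT_WT, against 3.56, 3.72 and 3.69 in TET_WT at day 2 (-1.40, SE 0.13, adjusted p = 2.33e-15), and a tile outside genes at 53388001 on chromosome 1 (-1.47). Pxk, Wdfy4 and Carmil3, the other losses named by size, all lie on chromosome 14. Tmem40 lies on chromosome 6, where DNMT_WT had 0.82 of the median chromosome's reads per tile, against 0.97 in TET_WT at day 2. None of the 10 tiles named by size passed with no trend of the spread on level.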

How the data were processed

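HMCP-seq capture of 5hmC was measured in 11 libraries: 3 of DNMT_WT at day 2 and 3, 2 and 3 of TET_WT at days 0, 1 and 2. The deposited values are log2 RPKM per 2 kb tile as the authors computed them; per the submitters' processing notes, reads were handled with Trim Galore 0.6.5, cutadapt 2.3 and Bowtie2 2.4.1 on GRCm38. The counting tool and its denominator are not given in the sources used here. All values were whole reads within 0.1% (an empty tile held 0.9 reads), and recovered totals were 2.32 times the RPKM denominator, so levels are relative, not absolute. RefSeq GRCm38.p6 gave genes, starts (none on chromosome 18) and sequences; a tile belongs to each gene it overlaps by 1 base or more.

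Differences were tested with limma 3.58.1 in R 4.3.3 (lmFit, eBayes with trend), 1 fit of all libraries over 1107042 autosomal tiles, without the lowest 10% and highest 0.1% by mean, with Benjamini-Hochberg adjustment over these tiles and a two-sided threshold of 0.05. The script was tested on simulated data. Same-numbered libraries did not deviate together (15 correlations, -0.11 to 0.09). No pair of replicates agreed within sampling noise (chi-square per degree of freedom over the high tiles 1.55 to 4.38). Named were the 10 genes with most high tiles and 1 tied with the last, genes of the 5 longest runs, the 5 highest and 6 most stable tiles, the 5 largest gains and losses per comparison, and up to 4 genes per list; other names were added after their values were seen and are marked. Some genes that the rule names are not reported here. Members and lists were chosen with earlier results of these data known.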

Additional observations from a re-analysis of the deposited data

How the results depend on the processing

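The rule gave 42568 tiles with a floor of 1.5 and 6233 with a floor of 2.5; leaving out 1 library gave 19081 to 19932, and other limits and scalings stayed within 1.5 times of 18866. The share in protein-coding genes was 77.1% with spans extended by 2 kb.

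Calls of high tiles depended on scaling, on the trend of the spread and on depth. Setting library medians equal gave 16 calls for day 1 over day 0, 153 for day 2 over day 1, 1355 for day 2 over day 0 and 608 between the lines. No trend gave 0, 0, 53 and 0, where 8638 high tiles had an unadjusted p under 0.05 between day 2 and day 0 by limma with the trend, and 4731, 4979 and 5859 in the other 3 comparisons. Equal depth gave 14, 30, 826 and 47. limma-voom on recovered reads gave 461 and 360 for the day 1 steps, and a fit of only the groups compared gave 195 for day 1 against day 0 and 3633 between the lines. Chromosome centring, added after seeing the data, gave 21, 279, 1578 and 424. The cause was not tested.

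With 1 library left out the counts ran, in that order, from 179 to 1347, from 455 to 2249, from 3851 to 5570 and from 1134 to 3125. Between day 2 and day 1 they were 838, 741 and 858 without each day 2 library, and between the lines 1134 to 1393 without any 1 of the 6 day 2 libraries. Replicate numbers share no stated batch; with them as a block, the pairing gave 680, 1189, 5226 and 2079 calls. None of the tiles named by the size of their difference turned its sign under the alternatives, and all 10 of day 2 against day 0 were called under each; the median over the Abcc4 tiles between the lines (-0.42) did turn, to 0.37 with chromosome centring, as did that over the Spata13 tiles (-0.61), to 0.18. The ends of the first pair of ranges came without TET_WT day 1 replicate 2 (lowest) and day 0 replicate 2 (highest); leaving out a day 1 library assumes that the lone one varies like the other groups. Day 1 rests on 2 libraries, of which replicate 2 had 7342015 reads.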
